A study of Mus musculus with 4 samples.

Results

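The genes examined were those of Polycomb repressive complex 2 (PRC2), namely Ezh1, Ezh2, Eed, Suz12, Jarid2, Mtf2, Aebp2, Phf1 and Phf19. They were found by name in the table of a pooled CRISPR-Cas9 knockout screen, and all 9 were among its 20380 genes, each with 6 guides. The cells were E14 mouse embryonic stem cells, an established line, with a MERVL-tdTomato reporter. MERVL is an endogenous retrovirus expressed in the 2-cell embryo and in rare cultured stem cells that resemble it. All cells carried the reporter and a lentiCRISPRv2 guide library, selected with puromycin, and reporter-positive cells were taken by flow sorting at day 5. The 4 libraries were of genomic DNA, 2 from the MERVL-positive cells and 2 from total cells, and the labels name no treatment beyond the guide library.

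PRC2 places methyl groups on lysine 27 of histone H3, and the trimethylated form, H3K27me3, marks repressed developmental genes in embryonic stem cells. EZH1 or EZH2 provides the catalytic SET domain, while EED and SUZ12 are needed to build an active enzyme. Accessory subunits divide the complex into forms: the Polycomb-like proteins PHF1, MTF2 and PHF19 define PRC2.1, and JARID2 with AEBP2 defines PRC2.2. Embryonic stem cells can be propagated without functional PRC2.

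The table holds 1 comparison per gene and no value for a single library, so no gene has an error between libraries and depth is unknown. The titles describe repeats of sequencing, with no word of separate cultures, and the authors' p-values may not cover variation between separate cultures. About 500000 cells were sorted for a library of 130209 guides, which comes to 3.84 sorted cells per guide and 23.0 for the 6 guides of a gene. Which group is the numerator is not stated. A positive log2 fold change is read as more guides in MERVL-positive cells. This reading is not settled, and rests on the study's own result, since its title reports MERVL activation in cells lacking Ints7. The authors' deposited table places Ints7 at rank 157 for positive and 18586 for negative change. By log2 fold change Ints7 is at 0.14 in that table, inside the -0.32 to 0.25 that holds the middle 50% of genes with 6 guides, so the size of its change lends the reading little. With the opposite reading, each direction given here turns.

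No PRC2 gene was called enriched or depleted in MERVL-positive cells. By the false discovery rate (FDR) of the authors' deposited table, 0 of the 9 passed 0.05 for enrichment and 0 for depletion, where 0% and 0.00491% of all genes passed. Before adjustment, the authors' deposited table gave 0 of the 9 a p under 0.05 for enrichment and 0 for depletion, against 5.02% and 5.07% of all genes. For enrichment the lowest p of the 9 was that of Phf1, 0.143, and for depletion that of Ezh2, 0.17, both from the authors' deposited table. At this number of sorted cells, a missing call is no evidence that loss of PRC2 leaves MERVL unchanged.

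The log2 fold changes of the 9 genes lay on both sides of 0, with 5 above and 4 below, while 48% of all genes were above and 52% below. Their median was 0.041 and their mean -0.031, beside a median of -0.021 over all genes. The 9 genes ran from -0.72 for Aebp2 to 0.67 for Phf1, a distance of 1.39. Among the 16270 genes with 6 guides, the 5th and 95th percentiles were -0.84 and 0.64, a range that held 8 of the 9, and Phf1 lay just above it. Neighbours in the order were 0.060 to 0.36 apart, and without a spread between libraries none of these steps could be tested. The genes lie on 7 chromosomes whose median gene values ran from -0.054 to 0.0047, so the chromosome medians were close to one another.

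**Figure D1:**
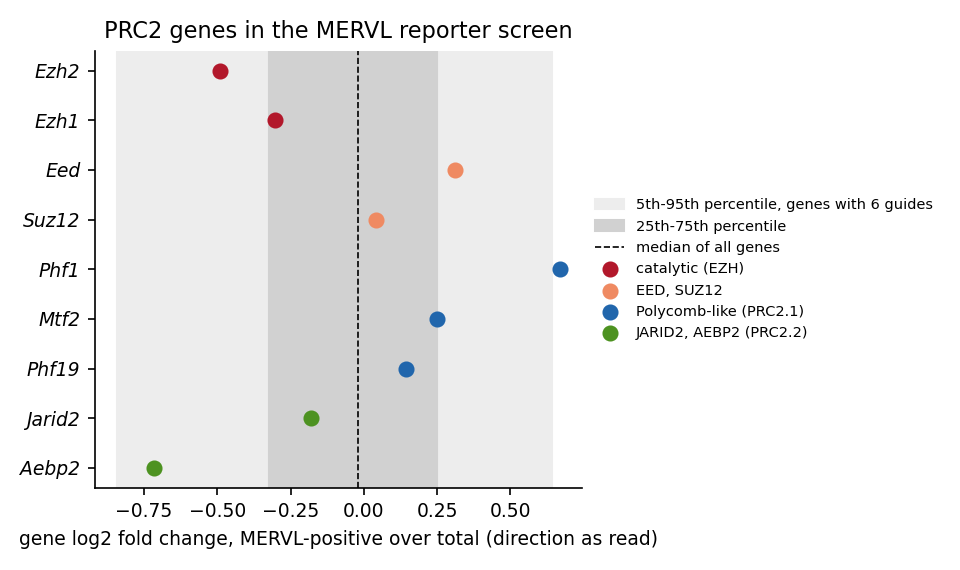
Gene log2 fold change (x axis, MERVL-positive over total as read here) of the 9 PRC2 genes, from the authors' deposited table. Each point is 1 gene, coloured by its role, the grey bands give percentiles over genes with 6 guides and the dashed line is the median of all genes. Phf1, at 0.67, is the 1 gene outside the wider band, and Aebp2, at -0.72, is the lowest.

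Both catalytic subunits lay below 0. Ezh2, the main H3K27 methyltransferase of dividing cells, on chromosome 6 from 47530274 to 47595270 in mm10, stood at a log2 fold change of -0.49 (0.712 as a ratio) by the authors' deposited table. Its 6 guides included 2 up and 3 down, where up and down mean past the authors' loose guide threshold and need not mean a change. That threshold lay near the outermost 37.4% of guides for up and 37.9% for down, as the entries with a single guide show. For depletion the authors' deposited table gave Ezh2 a p of 0.17, an FDR of 0.998 and rank 3666 among 22510 entries.

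Ezh1, the paralogue with the weaker methyltransferase activity, on chromosome 11 from 101191115 to 101226463, stood at a log2 fold change of -0.30 by the authors' deposited table. Down were 4 of the Ezh1 guides and up were 2, so every guide passed the threshold in one direction or the other. At least 4 of 6 guides were down in 2 of the 9 genes, Ezh1 and Aebp2, and in 15.5% of all genes with 6 guides. The authors' deposited table gave Ezh1 a p for depletion of 0.28. Ezh1 and Ezh2 differed by 0.18 on the log2 scale, and the authors' deposited table gave both a p for enrichment above 0.7. Each guide targets 1 gene, and the table holds no knockout of both paralogues.

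The other core subunits lay above 0. Eed, whose protein binds H3K27me3 and stimulates the enzyme, on chromosome 7 from 89954654 to 89980976, stood at a log2 fold change of 0.31 (1.24 as a ratio) by the authors' deposited table. For Eed 4 guides were up and 1 was down, and the authors' deposited table gave it a p for enrichment of 0.154, an FDR of 0.996 and rank 3225. Suz12, the scaffold of the complex, on chromosome 11 from 79993106 to 80034123, stood at a log2 fold change of 0.041 by the authors' deposited table. Its guides were split, with 3 up and 3 down, and the authors' deposited table gave it p = 0.344 for enrichment and p = 0.413 for depletion. Over the 4 core genes counted here, which leave out Rbbp4 and Rbbp7, the median log2 fold change was -0.13. Of the 24 guides of the 4 genes, 11 were up and 11 down, so these core subunits did not share a direction.

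All 3 Polycomb-like genes of PRC2.1 had log2 fold changes above 0. Their proteins bind DNA and methylated histone H3 and help bring PRC2 to CpG islands. Phf1, on chromosome 17 from 26933127 to 26937908, stood highest of the 9 genes, at a log2 fold change of 0.67 (1.59 as a ratio) by the authors' deposited table. This value exceeded that of 95.1% of all genes and of 86.0% of the 998 single non-targeting guides. Of the Phf1 guides 4 were up and 1 was down. At least 4 of 6 guides were up in 2 of the 9 genes, Phf1 and Eed, and in 14.5% of all genes with 6 guides. For enrichment the authors' deposited table gave Phf1 a p of 0.143, an FDR of 0.996 and rank 3001. For depletion it also ranked in the upper part of the authors' deposited table, at 5180 with p = 0.243, so Phf1 did not stand at the far end of either order.

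Mtf2, an abundant Polycomb-like protein of mouse embryonic stem cells, on chromosome 5 from 108065660 to 108109219, stood at a log2 fold change of 0.25 by the authors' deposited table. It had 3 guides up, 3 past neither threshold and none down. No guide was down in 5.84% of all genes with 6 guides, and Mtf2 was the 1 PRC2 gene of this kind. The authors' deposited table gave Mtf2 a p for enrichment of 0.373 and placed it at 21297 for depletion, near the bottom. Phf19, on chromosome 2 from 34893752 to 34914353, stood at a log2 fold change of 0.14 by the authors' deposited table and had 3 of its guides up and 2 down. The authors' deposited table gave it p = 0.535 for enrichment and p = 0.278 for depletion, so its ranks leaned against its fold change. Over the 18 guides of the 3 Polycomb-like genes, 10 were up and 3 down, or 55.6% and 16.7%. Among the guides of all genes, 37.4% were up and 38.0% down.

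Both genes of PRC2.2 lay below 0. Aebp2, a zinc finger protein that stabilises and stimulates the complex, on chromosome 6 from 140622454 to 140678472, stood lowest of the 9 genes, at a log2 fold change of -0.72 (0.608 as a ratio) by the authors' deposited table. The Aebp2 guides comprised 4 that were down, 2 that passed neither threshold and none that was up. No guide was up in 5.91% of all genes with 6 guides, and at least 4 were down with none up in 3.36%. For depletion the authors' deposited table gave Aebp2 p = 0.231 and rank 4937, behind Ezh2, although its fold change was lower. Of all genes, 8.23% had a lower log2 fold change than Aebp2. Among the non-targeting guides, each a single guide with no target, 14.6% were lower.

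Jarid2, a DNA-binding subunit of the Jumonji family that helps recruit PRC2, on chromosome 13 from 44730774 to 44921643, stood at a log2 fold change of -0.18 by the authors' deposited table. Its guides were mixed, with 2 up, 3 down and 1 past neither threshold. The authors' deposited table gave Jarid2 p = 0.26 for enrichment and p = 0.479 for depletion, so its better rank was for enrichment while its fold change was negative. Over the 12 guides of Aebp2 and Jarid2, 2 were up and 7 down, or 16.7% and 58.3%, beside 37.4% and 38.0% over all genes. The 3 Polycomb-like genes were thus all above 0 and Aebp2 and Jarid2 both below, a division noticed after the values were seen and given without a test. It covers these 5 genes alone. Of the 6 further PRC2 partners described below, 2 lay above 0 and 4 below, Lcor and Lcorl among the latter. By the better of its ranks for enrichment and depletion, Phf19 leaned to depletion and Jarid2 to enrichment, so the ranks do not follow the division. Each of the 3 Polycomb-like genes had more guides up than down, and Aebp2 and Jarid2 each had more down. Guide counts are not separate evidence from fold changes. The authors' deposited table gave 0 of these 5 genes an unadjusted p under 0.05 in either direction.

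**Figure D2:**
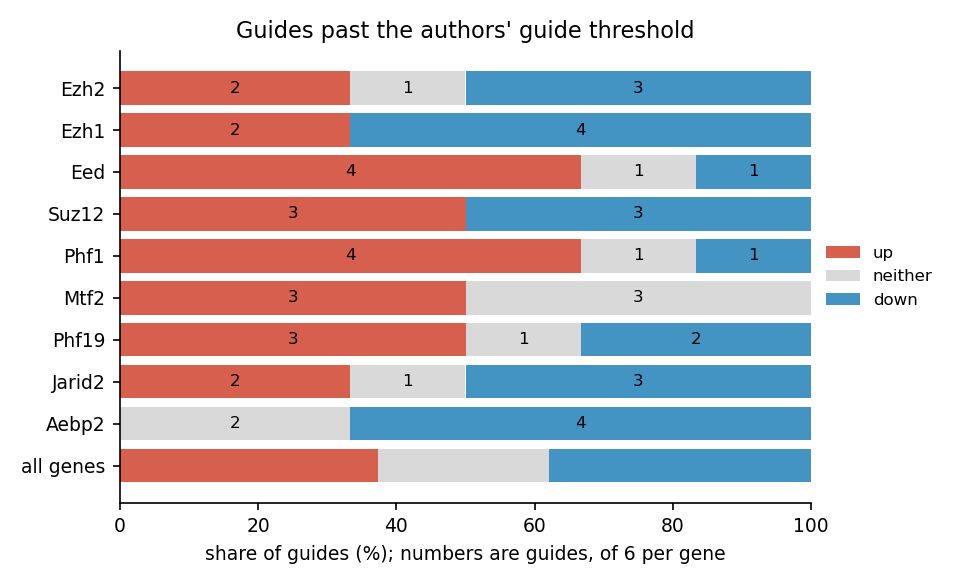
Share of guides (x axis, percent) up, down or past neither guide threshold for each PRC2 gene and for all genes, with the number of guides written in the bars, from the authors' deposited table. Aebp2 has no guide up and Mtf2 none down, while Suz12 is split 3 to 3.

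Taking the 54 guides of the 9 genes, 23 were up, 21 were down and 10 passed neither threshold. The share up was 42.6%, with an exact 95% binomial interval from 29.2 to 56.8, and over all genes it was 37.4%. The share down was 38.9% (25.9 to 53.1), and over all genes 38.0%. The intervals describe counting error alone and take guides as independent, which guides against the same gene are not, so no test is read from them. Where 4 or more of 6 guides were up, all 2367 genes had a log2 fold change above 0, and where 4 or more were down all 2529 lay below 0, so guide counts and fold changes are not separate evidence for a gene.

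Fold change and rank pointed in opposite directions for 2 of the 9 genes, Jarid2 and Phf19, as for 19.3% of all genes. The better of the 2 ranks was for enrichment in 5 PRC2 genes, of which 4 also had a log2 fold change above 0. Phf1 and Eed ranked best for enrichment, at 3001 and 3225. Ezh2 and Aebp2 ranked best for depletion, at 3666 and 4937. These 4 ranks, out of 22510 entries, come from the authors' deposited table.

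**Figure D3:**
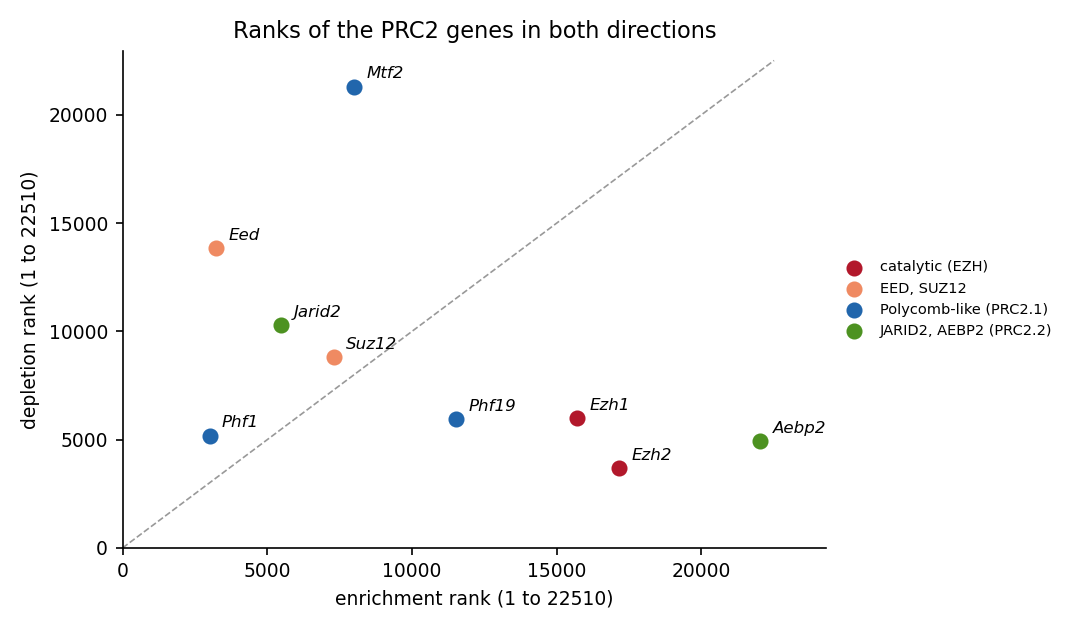
Enrichment rank (x axis) against depletion rank (y axis) of the 9 PRC2 genes among all 22510 entries of the authors' deposited table, where 1 is the strongest and the dashed line marks equal ranks. Mtf2 is far from depletion and Aebp2 far from enrichment, while Phf1 ranks fairly high on both axes.

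Proteins that bind PRC2 but were not counted among the 9 genes also lay on both sides of 0. This list of 6 had a median log2 fold change of -0.044, with 2 genes above 0 and 4 below. By the authors' deposited table, Lcor stood at -0.35 with 2 guides up and 3 down, and Lcorl at -0.071 with 2 of each. The counts of unadjusted p-values under 0.05 in this and the following lists stand beside 5.02% of all genes for enrichment and 5.07% for depletion. Ezhip, an inhibitor of PRC2, stands under an older name in the authors' deposited table, at 0.66 with 4 guides up and 1 down (p for enrichment 0.0802, FDR 0.985). Rbbp7, a histone-binding subunit shared with other complexes, stood at a log2 fold change of -0.57 by the authors' deposited table, with 1 guide up and 3 down (p for depletion 0.0899). For Rbbp4 the authors' deposited table gave -0.018, with 3 guides up and 3 down. Epop, which links PRC2.1 to elongin, was the 1 gene of the list with p under 0.05 in the authors' deposited table, at 0.034 for depletion before adjustment (FDR 0.975). By fold change the authors' deposited table puts Epop at 0.065, with 3 guides up and 2 down.

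Enzymes that remove H3K27 methylation, and the proteins that read it, gave no call. The 3 H3K27 demethylase genes had a median of 0.12, and the authors' deposited table gave 0 of them an unadjusted p under 0.05 in either direction. Kdm6a, also called UTX, stood at a log2 fold change of -0.49 by the authors' deposited table, with no guide up and 4 down. The authors' deposited table gave Kdm6a a p for depletion of 0.29. At least 4 guides were down with none up in 3.36% of all genes with 6 guides. Kdm6b stood at a log2 fold change of 0.18 by the authors' deposited table and had 2 of 4 guides up and 2 down. Kdm6a and Kdm6b thus lay on opposite sides of 0. The median of 0.12 is the value of Uty, which had 3 guides up and 2 down by the authors' deposited table (p for enrichment 0.0694). The 5 CBX genes, whose chromodomain proteins bind H3K27me3 within PRC1, had a median of -0.018 and ran from -0.16 for Cbx8 to 0.14 for Cbx2 in the authors' deposited table. The authors' deposited table gave 0 of the 5 an unadjusted p under 0.05.

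Methyltransferases of H3K4 and H3K36, marks that hinder PRC2 on the same histone tail, had a median of 0.19 over 9 genes, with 6 above 0. Kmt2a, the H3K4 methyltransferase also known as MLL, stood at a log2 fold change of 0.60 by the authors' deposited table and had 5 of 6 guides up and none down (p for enrichment 0.0296, FDR 0.985). It was the 1 gene of the list with an unadjusted p under 0.05 for enrichment, and 0 had one for depletion. Setd2, which trimethylates H3K36, stood at a log2 fold change of 0.65 by the authors' deposited table and had 4 guides up and none down (p for enrichment 0.0518). Kmt2c stood lowest of this list, at -0.46 by the authors' deposited table, with 1 guide up and 4 down.

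PR-DUB removes the ubiquitin that PRC1 adds to histone H2A, a mark that JARID2 and AEBP2 recognise. Its 6 genes had a median of 0.086, and the authors' deposited table gave 0 of them an unadjusted p under 0.05 in either direction. Bap1, the deubiquitinase, stood at a log2 fold change of 0.29 by the authors' deposited table and Foxk2, a DNA-binding partner, at -0.63.

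Some genes of PRC1, the partner Polycomb complex, had values outside the range of the PRC2 genes. Of all genes, 8.23% lay below Aebp2, the lowest PRC2 gene, and 95.1% lay below Phf1, the highest. Both PRC1 lists held 12 genes, beside 9 for PRC2. The 12 genes of the variant complex PRC1.6 had a median of -0.020 and ran from -1.44 for Cbx3, with no guide up and 5 down, to 1.10 for the ubiquitin ligase Rnf2 in the authors' deposited table. Rnf2 (p = 0.00165) and Max (p = 0.019), a DNA-binding subunit, had p under 0.05 for enrichment before adjustment, by the authors' deposited table, and 0 of the 12 had one for depletion, beside 5.02% and 5.07% of all genes. The 12 other PRC1 genes had a median of 0.032. Phc2, a sterile alpha motif subunit of canonical PRC1, stood at a log2 fold change of 0.91 by the authors' deposited table (p for enrichment 0.0162). Kdm2b, which brings a variant PRC1 to CpG islands, stood at a log2 fold change of -0.69 by the authors' deposited table, with no guide up and 5 down (p for depletion 0.0394). The authors' deposited table gave Rnf2, Max, Phc2 and Kdm2b an FDR above 0.8 in these directions. Whether PRC1 and PRC2 genes differ was not tested, since genes are not replicates of a condition.

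**Figure D4:**
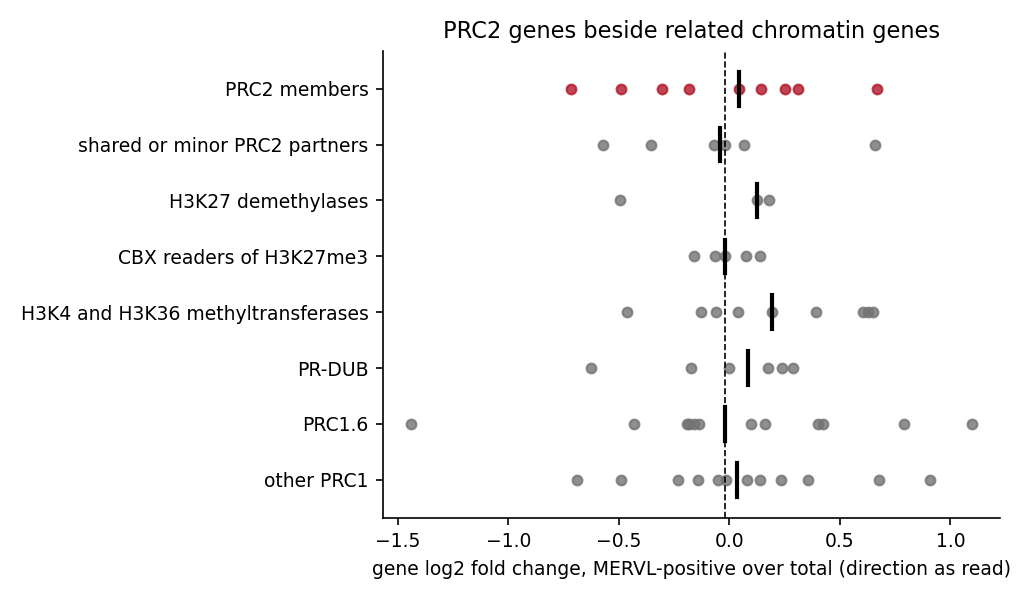
Gene log2 fold change (x axis, MERVL-positive over total as read here) of the PRC2 genes and of 7 lists of related chromatin genes, from the authors' deposited table. Each point is 1 gene, black bars are list medians and the dashed line is the median of all genes. The PRC2 genes run from -0.72 to 0.67, and the PRC1.6 genes from -1.44 to 1.10.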

How the data were processed

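Per the labels' protocols, about 130000000 cells were exposed to lentivirus for 24 h (polybrene at 4 ug/mL), puromycin at 2 ug/mL followed for 48 h, and guides were amplified by PCR. Values came from 1 table of 22510 entries (20380 genes, 1132 microRNAs and 998 non-targeting guides). The submitters' processing notes name MAGeCK and mm10. Not given in the sources used here are its version, settings, normalization and treatment group. Per the file headers, the authors deposited for each entry and direction a p-value, an FDR, a score, a rank and a count of guides past a guide threshold. A log2 fold change was deposited in 2 identical columns, and its base is taken as 2. No further test was run, because members are not replicates. The deposited p-values were adjusted over the whole table, and the threshold was 0.05.

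The members and the 7 related lists were chosen with earlier results of these data known. All 9 members were named. From each related list, genes with an unadjusted p under 0.05 were named, with the highest and the lowest by log2 fold change. Lcor, Lcorl, Rbbp4 and Uty were named as well. Of the 53 listed genes, 4 were found under an older name (RefSeq table, GRCm38.p6, the coordinates of mm10) and 0 were missing. Depth per library is unknown. Summaries were computed in Python 3.11.15 with pandas 2.3.3 and scipy 1.17.1 and tested on simulated data. Guide sequences were not used here.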

Additional observations from a re-analysis of the deposited data

How the results depend on the processing

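The median log2 fold change of the 9 PRC2 genes, 0.041, moved by more than 0.1 when it was taken over the core genes alone (-0.13) or the accessory genes alone (0.14), and both use fewer genes. It was -0.031 as a mean, 0.022 centred on non-targeting guides, 0.062 centred on all genes and -0.018 with Rbbp4 and Rbbp7, so its sign is not settled. The requirement of at least 5 guides left out no gene. The number of genes above 0 was 5 with either centring, 4 by more guides up than down and 5 by the better rank. Counts of unadjusted p-values stayed at 0 in both directions at thresholds of 0.01 and 0.1. The share of guides up was compared with genes of 6 guides too, which also had 37.4% up. No paired analysis was possible because the table holds no value per library, and for the same reason no repeat could be left out. With 3.84 sorted cells per guide, small effects may not have been detectable.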
